A study of Mus musculus with 8 samples.

Results

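A set of 9 genes of bone, chosen by symbol, was read on 8 arrays of mouse organ of Corti: 6 of the bone-forming cells (Sp7, Phex, Dmp1, Ibsp, Alpl and Spp1) and 3 of the bone-resorbing osteoclast (Mmp9, Acp5 and Ctsk). The organ of Corti is the sensory strip of the cochlea and holds no bone. It lies within the bony otic capsule and beside a bony shelf, so these transcripts can mark bone carried along in a dissection. Of the 9 genes, 8 had at least 1 probe set assigned to them alone in the supplied annotation (13 probe sets in all). Spp1 had none there, though the array may carry one, so Spp1 was not analysed here. The 8 genes stand among 18193 genes read from the arrays, and all 8 were among the 13221 genes bright enough to be tested.

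The series measured RNA of mice at postnatal day 16, 1 array per sample and 2 arrays in each of 4 groups. Conditional knockouts (cKO, Atoh1-Cre;Dicer1(flox/flox)) had both alleles of Dicer1, the enzyme that makes mature microRNAs, flanked by recombination sites. Littermate controls (Atoh1-Cre;Dicer1(flox/wt)) had 1 floxed and 1 wild-type allele and carried the same Cre, so both genotypes came from the Dicer1tm1Bdh and Tg(Atoh1-cre)1Bfri strains. Each genotype gave an apical and a basal section, the parts tuned to low and to high sound frequencies. Each sample pooled that section from both cochleae of 1 mouse, and apex and base of the same genotype and number were taken to be the same animal (4 presumed mice). Atoh1-Cre acts in hair cells, and where it recombined in these samples was not tested.

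Bone is laid down by osteoblasts, which become osteocytes once they are buried in the mineral, and is taken away by osteoclasts, large cells of the macrophage lineage. Sp7 (osterix) is the transcription factor that commits cells to the osteoblast fate. Alpl encodes the alkaline phosphatase that removes an inhibitor of mineral growth, Ibsp (bone sialoprotein) and Dmp1 are acidic matrix proteins that bind mineral, and Phex is an osteocyte enzyme whose loss causes phosphate wasting and soft bone. Ctsk encodes cathepsin K, which digests bone collagen, Acp5 the acid phosphatase used to stain osteoclasts, and Mmp9 a gelatinase that neutrophils also make in quantity.

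Dmp1, Ibsp, the matrix gene Mepe and Spp1 are the 4 consecutive protein-coding genes of 1 stretch of mouse chromosome 5 in the RefSeq annotation, so 3 of the 9 genes are neighbours. The 250 bases before the annotated starts of Phex and Dmp1, the genes that passed the test between base and apex below, and of Ibsp, the neighbour of Dmp1, are printed here from RefSeq (GRCm38.p6), each 5′ to 3′ on the gene's own strand. Capitals mark matches on either strand to the core bound by Runx factors, which control osteoblasts (TGTGGT or ACCACA), to the CCAAT box (CCAAT or ATTGG) or to a TATA core (TATAAA or TTTATA).
Phex, chrX:157415287-157415536, minus strand: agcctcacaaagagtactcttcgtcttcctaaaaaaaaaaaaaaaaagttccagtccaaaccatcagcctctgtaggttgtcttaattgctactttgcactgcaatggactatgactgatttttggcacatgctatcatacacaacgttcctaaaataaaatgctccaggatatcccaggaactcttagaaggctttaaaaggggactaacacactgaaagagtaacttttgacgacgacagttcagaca
Dmp1, outer start, chr5:104197325-104197574, plus strand: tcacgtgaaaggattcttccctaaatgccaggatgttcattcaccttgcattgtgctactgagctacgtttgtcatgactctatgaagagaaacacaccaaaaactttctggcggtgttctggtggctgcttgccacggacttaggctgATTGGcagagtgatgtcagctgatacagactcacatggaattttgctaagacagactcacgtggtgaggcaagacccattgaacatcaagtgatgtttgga
Dmp1, inner start, chr5:104202367-104202616, plus strand: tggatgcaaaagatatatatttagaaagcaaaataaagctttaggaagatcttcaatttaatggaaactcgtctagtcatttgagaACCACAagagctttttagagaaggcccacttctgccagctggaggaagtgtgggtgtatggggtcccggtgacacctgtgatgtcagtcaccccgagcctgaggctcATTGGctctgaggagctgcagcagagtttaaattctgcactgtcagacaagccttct
Ibsp, chr5:104299037-104299286, plus strand: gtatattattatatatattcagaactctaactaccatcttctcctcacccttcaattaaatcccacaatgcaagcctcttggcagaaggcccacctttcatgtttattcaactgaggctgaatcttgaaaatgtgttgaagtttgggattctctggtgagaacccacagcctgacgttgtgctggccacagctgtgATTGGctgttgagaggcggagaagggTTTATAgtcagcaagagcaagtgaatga
The inner start of Dmp1 had a Runx core at -164 and a CCAAT box at -57, where -1 is the base just before the start and the first base of the match is counted. Ibsp had a CCAAT box at -54 and a TATA core at -28, the outer start of Dmp1 a CCAAT box at -101, and the Phex window no match to any of the motifs. No match overlapped another. Among 32536 windows of the same length before annotated starts, 14.0% held a Runx core, 33.8% a CCAAT box and 12.3% a TATA core. Among the 12 windows of the 7 genes that the table holds, Spp1 included, the numbers were 2, 6 and 3.

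On each array the values are signals on a linear scale with a trimmed mean of 500, and medians ran from 67.3 to 100.4. Pearson's r between replicates, over all tested genes, was lowest for the pair of control basal arrays (0.9279), while the other 3 pairs had 0.9615 to 0.9779. In that pair replicate 1 was low in transcripts of the stria vascularis, the ion-pumping tissue beside the organ of Corti: its signal of the pigment-cell gene Dct was 62.2, against 15094 in its replicate and 12812 to 15408 on the cKO basal arrays. In the apex of the same presumed mouse, control apex replicate 1, Dct was high at 3750, against 73.2 to 659 on the other apical arrays. Control base replicate 1 correlated better with that apical array (0.968) than with its own replicate. Tectb, a gene of the tectorial membrane, separated the regions as labelled (5868 to 11411 in apex, 52.5 to 418 in base). Xist, which only female cells make in quantity, had signals of 5968 and 5365 on the replicate 1 arrays of controls. On every other array Xist was no more than 300.5. By this mark the sexes were not balanced between the genotypes, and the part of sex in the values was not tested. Phex lies on the X chromosome. Of the 9 hair cell markers measured, 7 were bright enough to be tested and Atoh1 and Slc26a5 were not. Dicer1 itself lay between 525 and 759 on all arrays, which checks nothing about recombination, since where its probes lie relative to the floxed part is not given. With 2 arrays per group, their number limits what can be measured.

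The first question was whether base and apex differed. Genes of the bone-forming cells had higher signals in the base, in both genotypes. For all 5 measured genes the lowest of the 4 basal arrays lay above the highest of the 4 apical ones, and each was higher in the base of all 4 presumed mice. Phex (2.51-fold) and Dmp1 (1.59-fold) passed the test across all genes. Ibsp, Alpl and Sp7 did not. Over the 13221 tested genes, 0.59% were called higher and 0.598% lower in the base, 5.96% had every basal array above every apical one, and 16% were higher in the base of all 4 mice.

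Phex had signals of 1491 and 1586 in control apex, 1572 and 1696 in cKO apex, 2877 and 4657 in control base, and 4249 and 4387 in cKO base (replicate 1, then 2). The apical arrays were close to one another and far below the basal ones, among which control base replicate 1 was the lowest. Base minus apex over both genotypes was 1.33 ± 0.16 (log2, SE; adjusted p = 0.0197, limma on all 8 arrays). Within mice it was 0.95 and 1.55 in controls and 1.33 and 1.48 in the cKO. The second Phex probe set, under the brightness filter, gave 2.57 ± 0.51 and did not pass (adjusted p = 0.0652).

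Dmp1 was at 7855 and 7607 in control apex, 9285 and 6826 in cKO apex, 11085 and 12158 in control base, and 13007 and 13734 in cKO base. The apex and base did not overlap, with cKO apex replicate 1 the nearest to the basal arrays. The difference was 0.67 ± 0.11 (log2, SE; adjusted p = 0.0455). A second probe set gave 0.68 ± 0.11 (adjusted p = 0.037) and the dimmest of its 3 probe sets 1.08 ± 0.20 (adjusted p = 0.0544).

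Ibsp, the sialoprotein encoded next to Dmp1, had signals of 3224 and 5868 in control apex, 3842 and 5493 in cKO apex (replicates 2 and 1), 6598 and 8558 in control base, and 8150 and 8888 in cKO base. The highest apical array, control replicate 2, came near the lowest basal one. Base minus apex was 0.84 ± 0.21 (log2, SE; adjusted p = 0.112). Within mice the range was 0.54 to 1.21. Alpl, the phosphatase, was at 159 and 245 in control apex, 199 and 89.8 in cKO apex, 324 and 431 in control base, and 501 and 361 in cKO base. Its apical values spread more than its basal ones, with cKO apex replicate 2 the lowest. The difference was 1.30 ± 0.30 (adjusted p = 0.0879). Sp7, the osteoblast factor, was at 191 and 244 in control apex, 209 and 179 in cKO apex, 314 and 400 in control base, and 380 and 272 in cKO base. Its steps within mice were the most even, 0.61 to 0.87, with a fitted difference of 0.73 ± 0.19 (adjusted p = 0.119).

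The number of genes that passed depended on single arrays and on how the mice were treated. Fitted with the presumed mouse as a random block, 4 of the 8 genes were called higher in the base: Phex (adjusted p = 0.00742), Dmp1 (0.0211), Alpl (0.0335) and Ibsp (0.0487). With the mouse as a fixed block 3 were called, Phex (0.0184), Dmp1 (0.0479) and Alpl (0.0331), and Ibsp was not (0.0525). Without control base replicate 1, the array that stood apart, 6 were called, with Sp7 and Ctsk added (adjusted p = 0.041 and 0.0451). Phex and Dmp1 both lost their calls when any 1 of the cKO apex, cKO base or control apex arrays was left out (adjusted p = 0.075 to 0.119 for Phex and 0.103 to 0.184 for Dmp1), and kept them without control base replicate 2. The size of the difference moved less, from 1.15 to 1.50 for Phex and from 0.56 to 0.78 for Dmp1. Over all tested genes the number called also rose with either block and without control base replicate 1. These rises were thus not particular to the bone genes. The counts over all tested genes in these fits are given in the closing section on processing.

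Taken separately, the genotypes gave like values. The median of base minus apex over the 5 genes was 0.79 in controls and 0.89 in the cKO (log2; -0.02 over all tested genes in each). None of the 8 genes passed in either genotype alone, where limma called 0 genes in controls (994, or 7.52%, at an unadjusted p under 0.05) and 11 in the cKO, 0.0151% of genes higher and 0.0681% lower in the base. The smallest adjusted p was that of Phex, 0.335 in controls (1.25 ± 0.22) and 0.0983 in the cKO (1.40 ± 0.22). In the cKO Phex passed with the mouse as a random block (adjusted p = 0.0387) but not as a fixed one (0.0672), and Phex, Ctsk and Ibsp passed when the cKO arrays were fitted alone (0.00496, 0.0203 and 0.0472). The test of the difference between the genotypes called 0 genes (149, or 1.13%, at an unadjusted p under 0.05). For the 5 genes that difference ran from 0.02 ± 0.38 for Sp7 to 0.75 ± 0.60 for Alpl, with an interval (95%) for Phex of -0.59 to 0.89.

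The osteoclast genes followed the region less evenly. Ctsk, the collagen-digesting cathepsin, was at 2113 and 4473 in control apex, 2651 and 3922 in cKO apex, 3548 and 5370 in control base, and 8215 and 7050 in cKO base. It was higher in the base of all 4 mice, by 0.26 to 1.63 (log2), but the regions overlapped, since control apex replicate 2 lay above control base replicate 1. Base minus apex was 0.87 ± 0.27 (log2, SE; adjusted p = 0.168).

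Mmp9, the gelatinase, had signals of 95.4 and 536 in control apex, 235 and 195 in cKO apex, 109 and 245 in control base, and 1202 and 436 in cKO base. Replicates of control apex thus differed 5.62-fold, more than the regions did. Base minus apex was 0.64 ± 0.59 (log2, SE; adjusted p = 0.611). By mouse it was 2.35 and 1.16 in the cKO and 0.19 and -1.13 in controls.

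Acp5, the osteoclast acid phosphatase, was at 74.3 and 436 in control apex, 97.3 and 139 in cKO apex, 44.3 and 193 in control base, and 1652 and 107 in cKO base. One array, cKO base replicate 1, was 15.4-fold above its replicate and 37.3-fold above the lowest array. Only that mouse had a higher value in the base, by 4.09 (log2); the other differences were -0.38, -0.75 and -1.17. The fitted difference was 0.45 ± 0.96 (adjusted p = 0.845), and -0.54 ± 0.78 without cKO base replicate 1. From its highest to its lowest array Acp5 ranged more widely than 99.8% of tested genes, and Mmp9 (12.6-fold) more widely than 99%.

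**Figure D1:**
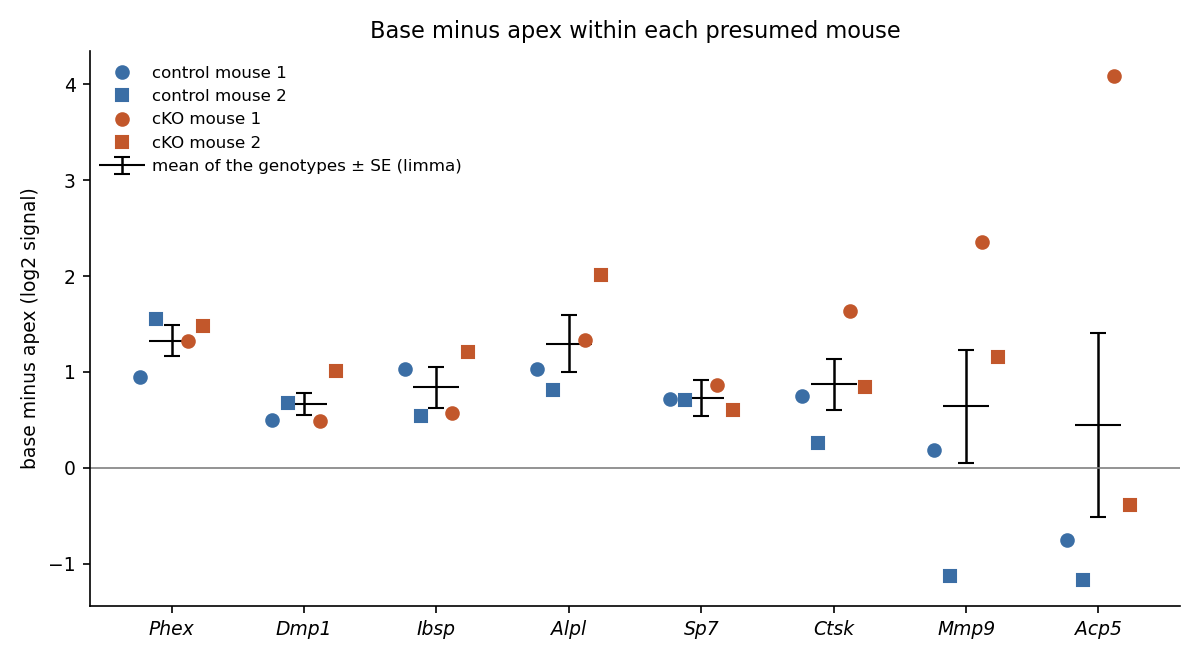
Base minus apex (log2 signal, vertical axis) within each presumed mouse for each gene (horizontal axis), blue for controls and orange for the conditional knockout, circles for mouse 1 and squares for mouse 2, with the limma mean of the genotypes ± SE in black. All points of the 5 genes at the left and of Ctsk are above 0, whereas Mmp9 runs from -1.13 to 2.35 and Acp5 from -1.17 to 4.09.

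The second comparison set the cKO against its littermate controls, separately in each region. In the apex no difference passed for any of the 8 genes (adjusted p = 1 for each, limma), and the groups overlapped for all 8, where 15% of tested genes had both cKO arrays above both controls and 16.2% both below. Phex gave 0.09 ± 0.22 (cKO minus control, log2, SE), Dmp1 0.04 ± 0.16, Ibsp 0.08 ± 0.30, Sp7 -0.16 ± 0.27, Ctsk 0.07 ± 0.38 and Mmp9 -0.08 ± 0.83. These are small beside their errors, and those of Dmp1 and Mmp9 changed sign under quantile normalization (-0.03 and 0.10). Alpl gave -0.56 ± 0.42 and Acp5 -0.63 ± 1.36. The median was 0.04 over the 5 bone-forming genes and -0.08 over the 3 osteoclast genes, against 0.00 over all tested genes. The intervals (95%) were narrowest for Dmp1, -0.32 to 0.41, and widest for Acp5, -3.80 to 2.55.

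In the base, the fitted differences of the osteoclast genes were larger than those of the bone-forming genes, with errors to match. Mmp9 gave 2.15 ± 0.83 (cKO minus control, log2, SE; 4.44-fold), Acp5 2.18 ± 1.36 and Ctsk 0.80 ± 0.38 (1.74-fold), with a median of 2.15 over the 3. Phex gave 0.24 ± 0.22, Dmp1 0.20 ± 0.16, Alpl 0.19 ± 0.42, Ibsp 0.18 ± 0.30 and Sp7 -0.14 ± 0.27, with a median of 0.19. That median was -0.02 without control base replicate 1, 0.37 without control base replicate 2 and -0.07 with the mean of probe sets. None passed (adjusted p = 1 for each, limma). Across all genes limma called 0% higher and 0% lower in either region (0 of 13221, with 290 or 2.19% at an unadjusted p under 0.05 in the apex and 413 or 3.12% in the base).

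In Mmp9, Ctsk and Dmp1 both basal cKO arrays lay above both basal controls, 3 of 8 genes, where 13.1% of tested genes did so. None of the 8 had both below, as 15.6% of tested genes did. For Acp5 the groups overlapped, since cKO base replicate 2 (107) was under control base replicate 2 (193). Without cKO base replicate 1, the values were 1.42 ± 0.99 for Mmp9, 0.21 ± 1.21 for Acp5 and 0.69 ± 0.50 for Ctsk, and the median of the 3 went from 2.15 to 0.69. Without control base replicate 1, the array low in stria genes and high in Xist, they were 1.56 ± 0.92, 1.12 ± 1.47 and 0.50 ± 0.41, with a median of 1.12. The effect of genotype in the base minus that in the apex was 2.23 ± 1.18 for Mmp9, 2.81 ± 1.92 for Acp5 and 0.73 ± 0.53 for Ctsk (adjusted p = 1 for each).

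Other probe sets of the same genes were read in the same way. The second Mmp9 probe set was at 19.3 and 101 in control base and 699 and 196 in cKO base, again without overlap (3.07 ± 1.43, adjusted p = 1). The second Phex probe set was at 6.27 and 3.47 in control apex and 21.4 and 8.35 in cKO apex, all under the filter's signal of 38.7. Its groups did not overlap there (1.52 ± 0.73, adjusted p = 1), and with the mean of both probe sets the apical Phex difference went from 0.09 to 0.80 ± 0.38 (adjusted p = 1). For Dmp1 the probe sets went different ways between genotypes. The dimmest one had signals of 865 and 1116 in control apex against 534 and 732 in cKO apex, and of 1544 and 2392 in control base against 1276 and 1604 in cKO base. It gave -0.65 ± 0.28 in the apex and -0.43 ± 0.28 in the base, where the second gave 0.01 ± 0.15 and 0.02 ± 0.15. None of these passed.

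**Figure D2:**
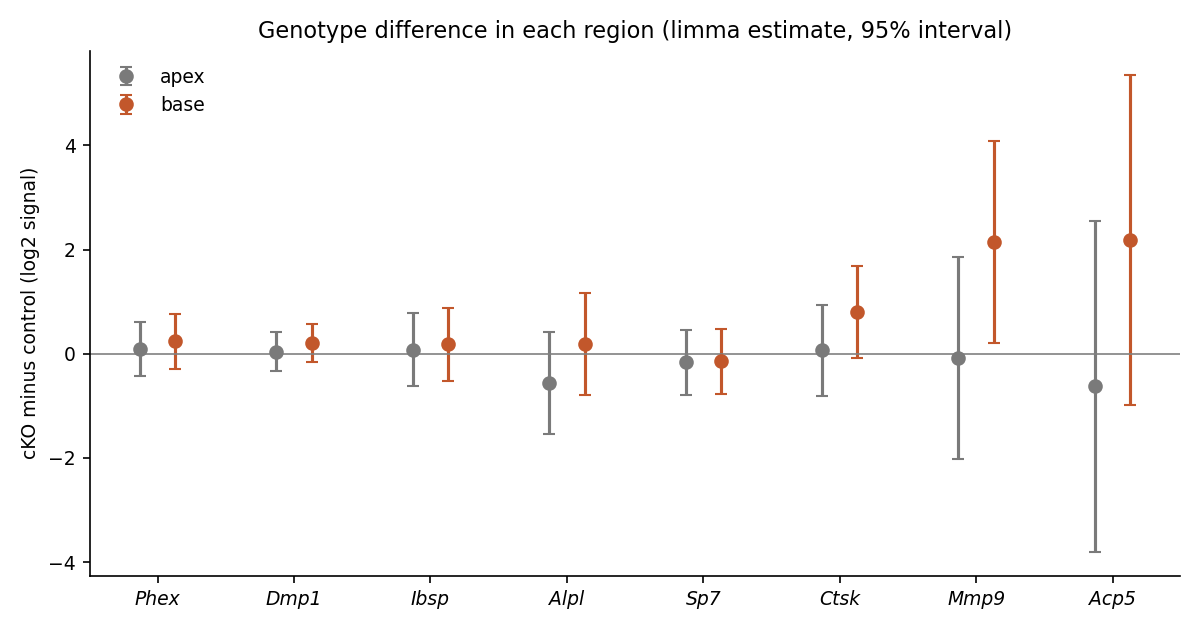
Conditional knockout minus control (log2 signal, vertical axis) for each gene (horizontal axis) in the apex (grey) and base (orange), with limma's estimate and its 95% interval on 2 arrays per group. Of the 16 intervals only that of Mmp9 in the base (0.21 to 4.09) leaves out 0, before any adjustment for the number of genes.

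Other genes of bone were read from 2 further lists. Of 26 further osteoblast and bone matrix genes with a probe set, 21 were bright enough to be tested and 3 were called higher in the base, beside 0.59% of all tested genes. Smpd3, a sphingomyelinase needed for mineralization, had signals of 482 to 630 in the apex and 1501 to 1981 in the base (1.65 ± 0.15, log2, SE; adjusted p = 0.0141). Omd (osteomodulin), a proteoglycan of the matrix, was at 378 to 697 and 1224 to 2066 (1.53 ± 0.18, adjusted p = 0.018), and Ank, which exports the mineral inhibitor pyrophosphate, at 4831 to 5105 and 7011 to 7592 (0.57 ± 0.08, adjusted p = 0.0299). For all 3 the regions did not overlap. Pth1r, the receptor of parathyroid hormone, gave 1.05 ± 0.22 (adjusted p = 0.0714). Mepe, picked out because it lies between Ibsp and Spp1, was at 152 to 380 in the apex and 395 to 1921 in the base, with a fitted difference of 1.92 (adjusted p = 0.116). Of the 21 genes 19 had a value above 0 and none was called lower, with a median of 0.50 against -0.02 over all tested genes.

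Further osteoclast genes gave less. Of 21 with a probe set, 18 were tested and 0 called by limma between base and apex (2 at an unadjusted p under 0.05, as were 17.2% of all tested genes), with 16 values above 0 and a median of 0.22. Car2, the carbonic anhydrase that supplies acid to osteoclasts and is made by many other cells, gave 0.88 ± 0.25 (adjusted p = 0.15), Fosl2 0.44 ± 0.20, Ostm1 0.25 ± 0.10 and Itgav 0.20 ± 0.09. Calcr, the calcitonin receptor, Ocstamp, a fusion protein, and the receptor Oscar lay under the filter's signal of 38.7 in their means, and Calcr did not exceed 8.30 on any array.

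Between genotypes in the base, none of these 39 genes passed (adjusted p = 1 for each named here, limma). The collagenase Mmp13 gave 2.52 ± 1.09, with a signal of 511 in cKO base replicate 1 and 15.6 to 119 on the other arrays, partly under the filter's signal. Sost, an osteocyte inhibitor of bone formation, gave -1.44 ± 0.99. Its signals were 120 and 16.5 in cKO base, replicate 2 under the filter's signal, and 112 and 131 in control base. Omd gave -0.38 ± 0.25 and the collagen chain Col1a2 0.17 ± 0.12. Of the osteoclast list, Car2 gave 0.84 ± 0.36, the integrin Itgb3 0.71 ± 0.38, Fosl2 0.47 ± 0.28 and the chloride transporter Clcn7 0.32 ± 0.18. Control base replicate 1 was the lowest basal array for each of them. Car2 was at 5666 there and 13919 in its replicate, against 17143 and 14691 in cKO base. Fosl2 was at 368 and 618 in control base against 760 and 577 in cKO base. Atp6v0d2, a proton pump subunit of osteoclasts, was picked out after its values were seen. It was at 26.2 to 63.0, partly under the filter's signal, on all arrays but cKO base replicate 1, where it was 189. All 3 of Ctsk, Mmp9 and Acp5 had their highest signal on that array, as did 8 of the 18 tested genes of the wider osteoclast list and 9.52% of all tested genes. Of the other 10, 4 were highest in control base replicate 2, 2 each in cKO base replicate 2 and cKO apex replicate 1, and 1 each in control base replicate 1 and control apex replicate 1. High counts on cKO base replicate 1 were not particular to osteoclast genes. It was highest for 8 of 21 further bone matrix, 6 of 10 stria, 6 of 12 neutrophil and 4 of 8 spiral ligament genes. For the other lists it was highest for 1 of 5 bone-forming, 3 of 11 cartilage, 3 of 12 macrophage, 2 of 8 supporting cell, 1 of 7 erythroid and 0 of 7 hair cell genes.

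Markers of other tissues moved with the region. Cartilage genes had summed signals of 59748 to 72981 in control apex, 69964 to 83738 in cKO apex, 96059 to 105797 in control base and 112948 to 113491 in cKO base, and 3 of 11 tested were called higher in the base. Hair cell genes went the other way, with sums of 2714 to 3818 and 3214 to 4013 in control and cKO apex and 1393 to 1509 and 730 to 986 in control and cKO base, and 3 of 7 called lower. Supporting cell genes had 4 of 8 called lower in the base. Of all tested genes, 0.59% were called higher and 0.598% lower there. In bulk RNA, fewer cells of a type and less RNA per cell cannot be told apart, and the part of tissue makeup in the bone gene values was not tested. Spiral ligament fibrocyte and stria vascularis genes had 0 called (limma, with 3 of 8 and 5 of 10 at an unadjusted p under 0.05 beside 17.2% of all tested genes, medians of 0.47 and 1.50), and control base replicate 1 was the basal array low in both (sums of 86438 and 21200, against 110298 to 127036 and 51639 to 57400 on the other basal arrays). The 5 bone-forming genes summed to 21198 on that array, below the other basal arrays (26205 to 27643) and above all apical ones (12508 to 16882).

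Blood cell markers were read beside the osteoclast genes because Mmp9 is also a neutrophil gene and Acp5 and Ctsk are also made by macrophages. Neutrophil granule genes (12 measured, all above the filter) summed to 2691 and 4663 in control base and to 8502 and 9052 in cKO base, to 3339 and 5265 in control apex and to 5102 and 4741 in cKO apex. Between genotypes in the base, 12 of the 12 neutrophil genes had a value above 0, with a median of 1.25 (log2), and 0 were called by limma. At an unadjusted p under 0.05 (limma) there were 9, beside 3.12% of all tested genes. The 2 cKO basal arrays had the highest neutrophil sums, with replicate 1 the lower of the 2. Acp5 was at 1652 on replicate 1 and 107 on replicate 2 of cKO base, and second highest, at 436, on control apex replicate 2. Macrophage genes (12 measured) had sums of 7537 to 12201 in basal controls, 10426 to 10764 in cKO base, 6911 to 11233 in apical controls and 8183 to 9906 in cKO apex. Erythroid precursor genes (9 measured, 7 tested) had sums of 811 to 2459, 1847 to 2488, 1504 to 2206 and 1174 to 1908 in the same order. Their part in the osteoclast gene values was not tested.

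**Figure D3:**
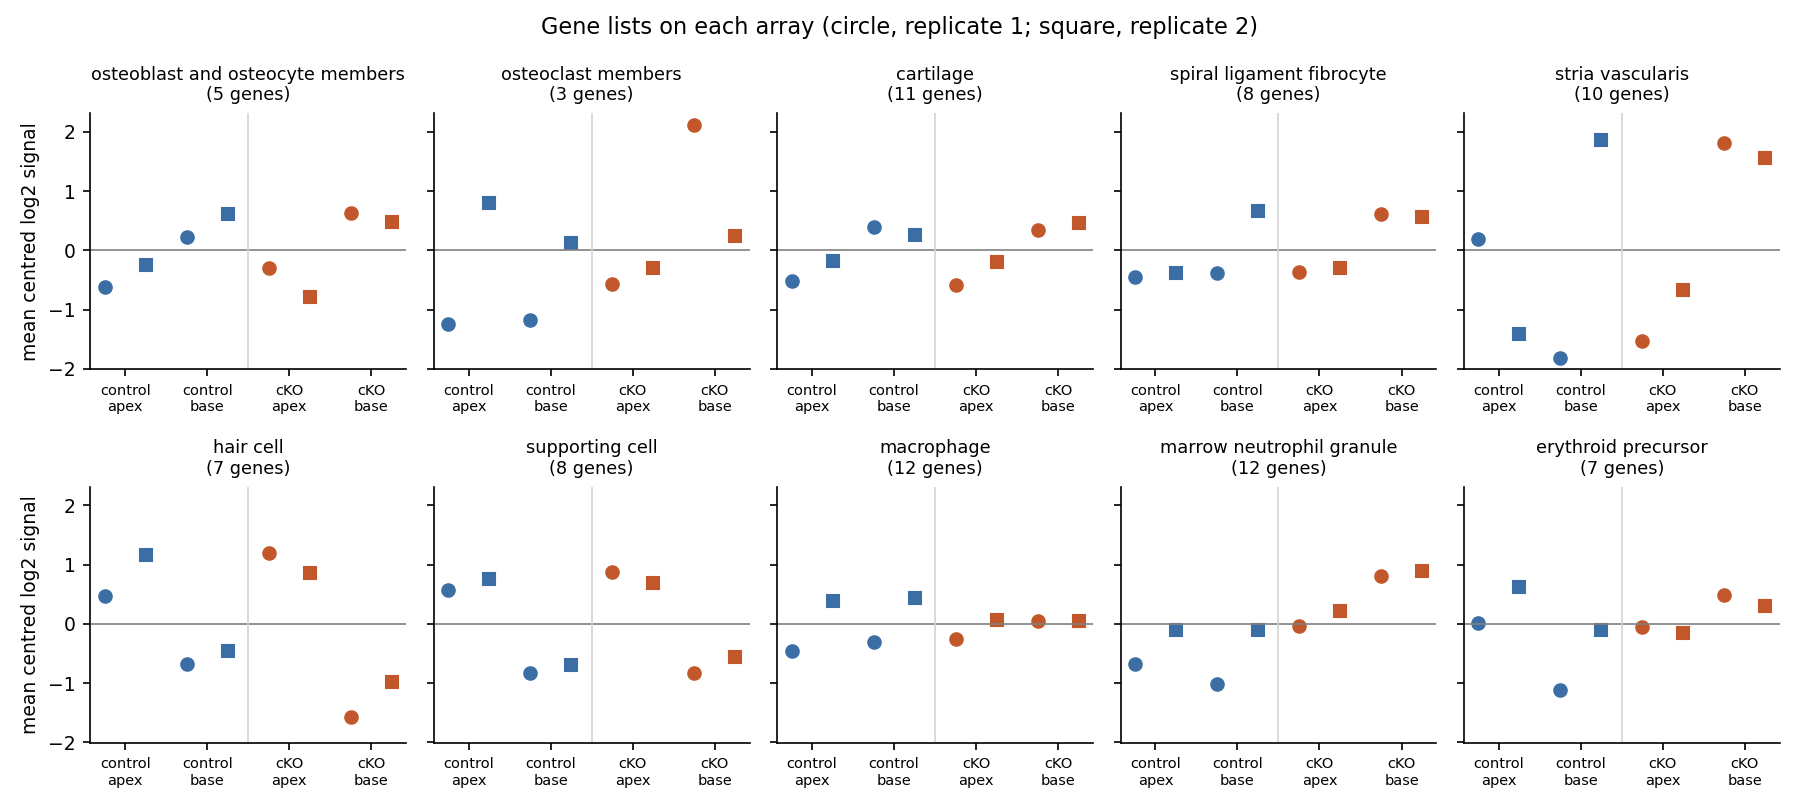
Mean log2 signal of each gene list, each gene centred on its mean over the 8 arrays (vertical axis), on every array by group (horizontal axis), control in blue and conditional knockout in orange. The bone-forming genes run from -0.78 to -0.25 in apex and 0.22 to 0.62 in base, hair cell genes the other way, and the osteoclast genes reach 2.12 in cKO base replicate 1 and -1.24 in control apex replicate 1.

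Across the 8 arrays, which come from 4 presumed mice and so are not independent, the bone-forming genes went together, while Ctsk correlated with them about as well as with the other osteoclast genes. Among the 5 bone-forming genes Pearson's r of log2 signals ran from 0.82 (Sp7 and Dmp1) to 0.95 (Phex and Dmp1). Mmp9 and Acp5 correlated at 0.90, Mmp9 and Ctsk at 0.81 and Acp5 and Ctsk at 0.66. Between the sets, Acp5 correlated with the bone-forming genes at 0.19 to 0.43, Mmp9 at 0.40 to 0.60 and Ctsk at 0.66 to 0.81. The mean of each set correlated with that of the other at 0.51. The genes most like the mean of the bone-forming set were Niban2 (r = 0.98), Chst12 (0.98), Gpr4 (0.97), Fxyd6 (0.97) and Gpc1 (0.97), and those most like the osteoclast set were Selplg (0.95), Egr1 (0.95), Fgf13 (0.95), Mmp13 (0.93) and Pld4 (0.93). These values describe 8 arrays that share region and dissection, and the best of 13221 genes are high by selection.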

How the data were processed

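Total RNA of 8 samples was isolated with the mirVana kit and labelled with biotin in 2 cycles, per the labels' protocols. Each deposited value is the linear intensity of a probe set. Per the submitters' processing notes, the authors used MAS5 and the affy package, version 1.26, without stated roles. The mean of each deposited array, trimmed by 2% at each end, is 500. The array version is not given in the sources used here, and detection calls were not used here.

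Of 45101 probe sets, 64 were controls, 34945 had 1 gene in the supplied annotation (34741 matched by Entrez identifier), 932 several and 9160 none listed. A gene was read from its single-gene probe set of highest mean log2 value. Genes were tested if their mean log2 value reached its 40th percentile (5.27, which is 38.7 as a signal). Log2 values without pseudocount were fitted with limma 3.58.1 (R 4.3.3) to 4 group means of all 8 arrays, with variances moderated by eBayes along intensity (4 residual and 3.46 prior degrees of freedom). Tests were two-sided, Benjamini-Hochberg adjusted over 13221 genes, at a threshold of 0.05. Intervals are at 95%, unadjusted. The procedure was tested on simulated data. Groups came from the sample titles. The text names all members, and from each of the other bone and osteoclast lists the 4 genes of smallest p in base minus apex and in the base between genotypes. Mepe, Atp6v0d2, Calcr, Ocstamp and Oscar were named from these lists outside that rule. The members, lists and tests were chosen with earlier results of these data known.

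Apex and base of a genotype and number were taken as 1 mouse, since the study describes each replicate as segments of a single mouse. Their deviations from group means correlated at r = 0.34 in controls and 0.07 in the cKO. Across genotypes the number is only shared. P-values of the main fit rest on the spread between the 2 arrays of each group, pooled over the 4 groups and moderated across genes. That fit has no term for the mouse, so it treats apex and base of 1 presumed mouse as independent. Alternatives covered the filter, a pseudocount of 16, normalization, probe sets, the variance model, the mouse as a block, low values, the groups fitted and each array left out.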

Additional observations from a re-analysis of the deposited data

How the results depend on the processing

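Alternatives were run for 8 genes, the medians of the 2 sets and the count of called genes in 6 contrasts. With a random replicate block for the presumed mouse, base minus apex over both genotypes called 527 genes and 4 of the 8, and in the cKO 81 and 1. With a fixed block it called 255, and 0 in the cKO. Against 157 genes and 2 of the 8 without a block, base minus apex called 102 genes with the mean of probe sets and 70 without the intensity trend, and 1 of the 8 without the filter or without the trend. In the cKO, where the count was 11, it was 0 without the filter, with quantile normalization, 75th percentile centring or no trend, 6 with the mean of probe sets, and 449 (3 of the 8) with the compared groups alone. Between genotypes, 1 gene was called in each region without the trend. The cause of these changes was not tested.

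With single arrays left out, base minus apex over both genotypes called 0 to 1518 genes and 0 to 6 of the 8. The highest counts came without control base replicate 1, and 365 genes were called without control base replicate 2. In controls the ranges were 0 to 551 genes and 0 to 1 of the 8, in the cKO 0 to 316 and 0 to 1, and between genotypes in the base 0 to 37 genes. Medians of the bone-forming genes ran from 0.60 to 1.22 for base minus apex in controls and from -0.34 to 0.14 between genotypes in the apex. Those of the osteoclast genes ran from -1.72 to 0.77 in controls, -1.32 to 0.65 between genotypes in the apex, 0.69 to 2.88 in the base, and 0.84 to 3.47 for the difference of the genotype effect.

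None of the values that changed sign had passed the test. For cKO minus control in the apex, Dmp1 was -0.0259 with quantile normalization, -0.20 with the mean of probe sets and -0.65 with its dimmest probe set. Ibsp was -0.0135 with the mean and -0.11 with its second probe set, and Mmp9 0.10, 0.14 and 0.35 with quantile normalization, the mean and the second probe set. In the base, Dmp1 was -0.0663 and -0.43 and Ibsp -0.13 and -0.43 with the mean and the other probe set. For the difference of the genotype effect, Ibsp was -0.11 and -0.33 and Phex -0.37 and -0.89 in the same settings, and Sp7 -0.026 with quantile normalization. Mmp9 in controls, base minus apex, was 0.21 with its second probe set.

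With arrays left out, values that changed sign between genotypes in the apex ran from -1.90 to 0.65 for Acp5, -1.14 to 0.0139 for Alpl, -0.47 to 0.61 for Ctsk, -0.18 to 0.26 for Dmp1, -0.35 to 0.51 for Ibsp, -1.32 to 1.17 for Mmp9 and -0.34 to 0.0179 for Sp7. In the base they ran from -0.0499 to 0.42 for Alpl, -0.008 to 0.37 for Ibsp, -0.11 to 0.59 for Phex and -0.38 to 0.10 for Sp7. For the difference of the effect they ran from -0.0612 to 0.38 for Dmp1, -0.33 to 0.53 for Ibsp, -0.20 to 0.50 for Phex and -0.22 to 0.26 for Sp7. Base minus apex ran for Acp5 from -0.54 to 1.43 over both genotypes, -0.12 to 3.83 in the cKO and -2.24 to 0.32 in controls, and in controls for Ctsk from -0.0355 to 1.05 and for Mmp9 from -1.72 to 0.77. A group left with 1 array is assumed to vary like the others. For base minus apex over both genotypes, all 5 bone-forming genes and Ctsk kept their direction under every alternative run.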
